A study of Arabidopsis thaliana with 24 samples.

Results

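The 9 sporopollenin and exine synthesis genes of Arabidopsis thaliana were followed through the deposited counts of flower buds and dry seeds. They were chosen by gene identifier from the known pathway (ACOS5, CYP703A2, CYP704B1, LAP5, LAP6, TKPR1, TKPR2, MS2 and ABCG26) by a rule that uses no measured value, though with earlier results of these data known, and are 9 of the 33243 genes in each table. All 9 identifiers were found in both tables, all 9 passed the filter on low counts in flowers, and 5 of 9 passed it in seeds.

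RNA was measured in unopened flower buds, taken 2 weeks after flowering began, and in dry mature seeds, taken at 8 weeks. The groups were plants with the T-DNA insertion urt1-1, plants with the T-DNA insertion heso1-4, heso1-4 urt1-1 plants carrying both insertions, and Col-0 wild type (WT). All mutants were in the Columbia background and each gene was represented by 1 insertion line. URT1 and HESO1 are terminal uridylyltransferases, enzymes that add uridines to RNA 3′ ends. Each tissue had 4 groups of 3 libraries, labelled as biological replicates, and each library came from at least 5 pooled plants, so the spread between libraries is between pools of plants. The labels number the replicates and give no meaning for the numbers.

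Sporopollenin is the resistant polymer of the exine, the patterned outer wall of pollen. Its lipid precursors are made in the tapetum, the innermost cell layer of the anther, for a limited time after meiosis when microspores lie free in the anther locule. A fatty acid is activated to a CoA ester and hydroxylated, extended by polyketide synthases to an alkyl pyrone and reduced, while a separate branch yields fatty alcohols, and transporters carry products out to the microspores. Loss of most of these enzymes leaves Arabidopsis pollen with a thin or missing exine.

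Total counts were 23787015 to 39797391 per flower library and 19304121 to 38853305 per seed library. The tissue labels held against marker genes. The 3 petal and stamen identity genes summed to 229.8 to 393 CPM (counts scaled to library size) in flowers and 0.46 to 1.90 CPM in seeds, and 4 seed storage and oil body genes summed to 5.34 to 11.4 CPM in flowers and 48056 to 102346 CPM in seeds. URT1 counts in flower buds came to 2.79, 2.56 and 1.89 CPM for urt1-1 replicates 1, 2 and 3, 47.9, 48.9 and 46.5 CPM in heso1-4, 2.28, 2.54 and 2.64 CPM in heso1-4 urt1-1 and 42.7, 53.8 and 45.2 CPM in WT. HESO1 went against its label. It stood at 854, 752 and 809.8 CPM in libraries labelled heso1-4 and 84.0, 46.3 and 64.8 CPM in libraries labelled heso1-4 urt1-1, against 14.3, 11.7 and 14.7 CPM in urt1-1 and 14.2, 14.2 and 13.4 CPM in WT, so loss of HESO1 was not shown and no direction below is read as its loss.

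Per the deposited annotation (TAIR10), the genes lie on 3 chromosomes and all are protein-coding. ACOS5 (AT1G62940, chr1:23310532-23312795), CYP703A2 (AT1G01280, chr1:112263-113947), CYP704B1 (AT1G69500, chr1:26123940-26126057) and TKPR2 (AT1G68540, chr1:25719958-25721549) are on the plus strand of chromosome 1. LAP6 (AT1G02050, chr1:359117-360746) is on its minus strand. MS2 (AT3G11980, chr3:3814231-3817117, plus strand) and ABCG26 (AT3G13220, chr3:4247675-4250703, minus strand) are on chromosome 3. LAP5 (AT4G34850, chr4:16608204-16609829, plus strand) and TKPR1 (AT4G35420, chr4:16833933-16835619, minus strand) are on chromosome 4. Reads were counted over the whole gene span, introns included, by strand. The first 89 bases of LAP5 overlap AT4G34840 on the same strand and reads there were counted for both genes, so that part of the LAP5 count is uncertain. LAP5, TKPR1 and ABCG26 also overlap a gene on the opposite strand, which the stranded counting keeps apart.

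To show what lies before the genes, the 150 bases upstream of each annotated start were read from the RefSeq genome (TAIR10.1, same gene coordinates). Because tapetal regulators of the bHLH and MYB families are known to act on this pathway, 2 short motifs were searched on both strands: CANNTG, the core bound by bHLH proteins, and AACC, a core found in many MYB sites. Each motif was found in the windows of as many genes, 5 of 9 for CANNTG against 38.0% of 27443 windows of all protein-coding genes, and 5 of 9 for AACC against 64.9%. The palindrome CACGTG, a case of CANNTG, was in 0 of 9 windows (4.78% of all), CCAACC, which holds AACC, was in 0 of 9 (3.88% of all), and TATAAA on the gene strand was in 2 of 9 (23.4% of all). These shares were not tested, and a match is a run of letters, not a shown site. The 5 windows with CANNTG are printed 5′ to 3′ on the gene strand, in lower case with CANNTG and AACC matches (or GGTT, their other strand) in capitals. They are chr1:23310382-23310531 for ACOS5, chr1:360747-360896 for LAP6, chr4:16835620-16835769 for TKPR1, chr3:3814081-3814230 for MS2 and chr3:4250704-4250853 for ABCG26.
ACOS5: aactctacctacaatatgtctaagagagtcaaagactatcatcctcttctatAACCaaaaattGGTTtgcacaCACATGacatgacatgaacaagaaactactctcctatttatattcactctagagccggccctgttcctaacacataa
LAP6: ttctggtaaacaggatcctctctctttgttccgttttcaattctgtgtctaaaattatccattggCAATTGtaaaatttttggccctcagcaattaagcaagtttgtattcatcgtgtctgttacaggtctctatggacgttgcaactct
TKPR1: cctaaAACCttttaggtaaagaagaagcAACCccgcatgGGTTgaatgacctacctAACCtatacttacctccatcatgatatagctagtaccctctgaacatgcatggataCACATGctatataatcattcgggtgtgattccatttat
MS2: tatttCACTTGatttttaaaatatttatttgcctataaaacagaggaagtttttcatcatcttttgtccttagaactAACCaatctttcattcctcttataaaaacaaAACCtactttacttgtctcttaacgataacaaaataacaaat
ABCG26: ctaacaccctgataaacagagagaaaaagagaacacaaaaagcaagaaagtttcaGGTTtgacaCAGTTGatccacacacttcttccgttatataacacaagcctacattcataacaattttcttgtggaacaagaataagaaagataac
The CANNTG match begins 38 bases before the start of TKPR1, 77 before ACOS5, 85 before LAP6, 86 before ABCG26 and 145 before MS2. TKPR1 has the most AACC matches, 4, and ACOS5 and TKPR1 carry the same 6 letters, CACATG, at their CANNTG match.

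All 9 genes were detected in every flower library, and their levels went up and down together from library to library. For each of the 9, the lowest of the 12 libraries was urt1-1 replicate 1 and the highest was WT replicate 3. Since these 2 libraries stand apart, the main counts and medians over the 9 genes in flowers are also given without 1 or the other. Counts called between single replicate numbers are given for the full set only. The ratio between those libraries ran from 4.79 for TKPR2 to 9.9998 for CYP703A2. Summed over the 9 genes, the level was 174, 648 and 731 CPM in urt1-1 replicates 1, 2 and 3, 450.4, 751 and 781 CPM in libraries labelled heso1-4, 277, 624 and 672 CPM in libraries labelled heso1-4 urt1-1, and 533, 532 and 1263 CPM in WT, a 7.24-fold span. In bulk buds, fewer tapetal cells and less RNA per tapetal cell cannot be told apart.

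**Figure D1:**
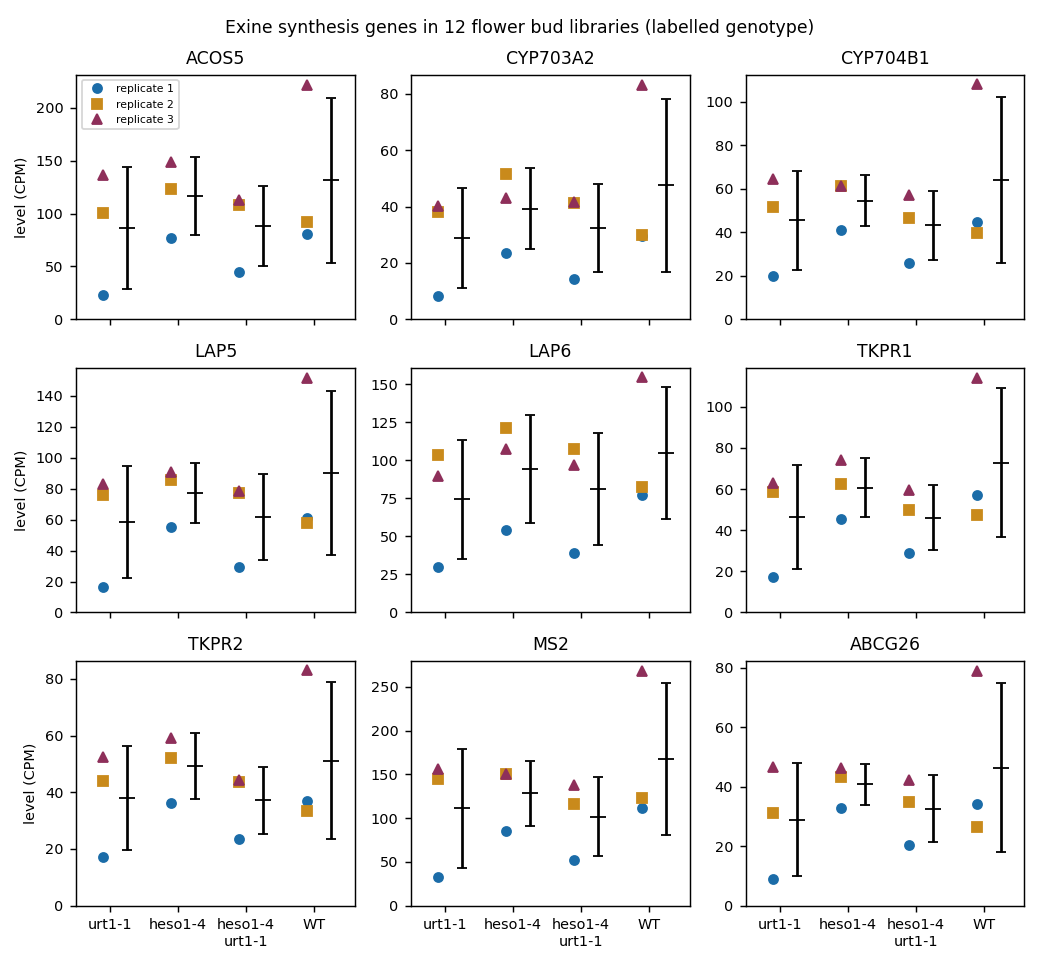
Level of each of the 9 genes in 12 flower bud libraries, in CPM on the vertical axis, by labelled genotype on the horizontal axis, with symbols for replicate numbers and bars for the mean ± SD of 3 libraries. In every panel urt1-1 replicate 1 is the lowest point and WT replicate 3 the highest, and the genotypes overlap.

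The genes of the entry steps overlapped between genotypes. ACOS5, the acyl-CoA synthetase that activates fatty acids in the tapetum, had 22.5, 101 and 136 CPM in urt1-1 replicates 1, 2 and 3, 76.4, 123 and 149 CPM in heso1-4, 44.4, 108 and 113 CPM in heso1-4 urt1-1 and 80.7, 92.3 and 222 CPM in WT. The mutant and WT values overlapped, and its log2 fold change against WT was -0.61 ± 0.61 (SE) in urt1-1, -0.18 ± 0.61 in heso1-4 and -0.57 ± 0.61 in heso1-4 urt1-1. CYP703A2, the cytochrome P450 that hydroxylates medium-chain fatty acids in the chain, had 8.32, 38.1 and 40.3 CPM in urt1-1, 23.4, 51.5 and 42.9 CPM in heso1-4, 14.2, 41.2 and 41.8 CPM in heso1-4 urt1-1 and 29.4, 29.993 and 83.2 CPM in WT. WT replicates 1 and 2 were nearly equal and WT replicate 3 stood well above them. CYP704B1, the P450 that hydroxylates the far end of longer fatty acids, had 20.1, 51.8 and 64.4 CPM in urt1-1, 40.9, 61.4 and 61.3 CPM in heso1-4, 25.7, 46.4 and 57.4 CPM in heso1-4 urt1-1 and 44.8, 39.7 and 108 CPM in WT. In urt1-1 its log2 fold change was -0.50 ± 0.48 (95% interval -1.57 to 0.56), and that of CYP703A2 was -0.72 ± 0.63 (95% interval -2.11 to 0.67), the lowest of the 9 in that comparison.

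Both polyketide synthases overlapped between genotypes. LAP5 extends hydroxylated acyl-CoA esters to alkyl pyrones, and had 16.6, 76.0 and 82.8 CPM in urt1-1, 55.1, 85.3 and 91.1 CPM in heso1-4, 29.4, 77.0 and 78.5 CPM in heso1-4 urt1-1 and 61.1, 57.7 and 151 CPM in WT. LAP6, which catalyses the same kind of reaction and is partly redundant with LAP5, had 29.9, 103 and 89.3 CPM in urt1-1, 54.3, 121 and 107 CPM in heso1-4, 39.1, 107 and 97.1 CPM in heso1-4 urt1-1 and 77.2, 82.2 and 154 CPM in WT. In each mutant genotype LAP6 was higher in replicate 2 than in replicate 3, and in WT replicate 3 was the highest. The log2 fold changes of LAP5 were -0.63 ± 0.59 in urt1-1, -0.22 ± 0.59 in heso1-4 and -0.55 ± 0.59 in heso1-4 urt1-1. Those of LAP6 were -0.50 ± 0.51, -0.15 ± 0.51 and -0.37 ± 0.51 in the same order.

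The pyrone reductases had the same lowest and highest libraries. TKPR1, which reduces the tetraketide pyrones made by LAP5 and LAP6, had 17.4, 58.6 and 63.0 CPM in urt1-1, 45.4, 62.7 and 74.0 CPM in heso1-4, 28.9, 50.0 and 59.6 CPM in heso1-4 urt1-1 and 57.3, 47.2 and 114 CPM in WT. TKPR2, a second reductase of the same substrates, had 17.3, 43.9 and 52.6 CPM in urt1-1, 36.3, 52.0 and 59.2 CPM in heso1-4, 23.4, 43.6 and 44.5 CPM in heso1-4 urt1-1 and 36.9, 33.5 and 83.0 CPM in WT. For both, WT replicate 2 lay below WT replicate 1, and urt1-1 replicate 1 lay below all other libraries. TKPR1 had log2 fold changes of -0.66 ± 0.48 in urt1-1, -0.26 ± 0.48 in heso1-4 and -0.66 ± 0.48 in heso1-4 urt1-1. TKPR2 had -0.43 ± 0.45, -0.06 ± 0.45 and -0.46 ± 0.45 in the same order, and its value in heso1-4 was the closest to 0 of all 27.

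The gene of the fatty alcohol branch and that of the exporter also overlapped between genotypes. MS2, a plastid fatty acyl reductase that makes fatty alcohols for the exine, had 33.1, 145 and 156 CPM in urt1-1, 85.7, 150.03 and 150.11 CPM in heso1-4, 51.7, 116 and 138 CPM in heso1-4 urt1-1 and 111, 123 and 268 CPM in WT. It had the lowest log2 fold change in heso1-4, -0.38 ± 0.56, and in heso1-4 urt1-1, -0.72 ± 0.56 (95% interval -1.97 to 0.53), and -0.59 ± 0.56 in urt1-1. ABCG26, the ABC transporter that exports polyketide precursors from the tapetum, had 9.11, 31.1 and 46.7 CPM in urt1-1, 32.9, 43.4 and 46.2 CPM in heso1-4, 20.5, 35.0 and 42.4 CPM in heso1-4 urt1-1 and 34.2, 26.4 and 78.9 CPM in WT. The heso1-4 libraries lay closer together than those of the other genotypes, with a mean of 40.8 ± 6.97 CPM (SD, n = 3). The log2 fold changes of ABCG26 were -0.68 ± 0.54 in urt1-1, -0.19 ± 0.54 in heso1-4 and -0.51 ± 0.54 in heso1-4 urt1-1.

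Per kilobase of gene span (RPKM), the median level over the 12 flower libraries was 57.2 RPKM for LAP6, 47.0 for LAP5, 46.0 for ACOS5, 45.2 for MS2, 34.4 for TKPR1, 27.5 for TKPR2, 23.3 for CYP703A2, 23.2 for CYP704B1 and 11.4 for ABCG26. The spread of each gene between libraries was wider than the steps in this order, so the order was read within libraries. LAP6 ranked between 1 and 3 and held 14.8% to 20.8% of the summed RPKM. LAP5, ACOS5 and MS2 exchanged ranks, TKPR1 ranked 4 or 5, and TKPR2 ranked between 3 and 6 with 7.99% to 12.3%. Both P450s ranked 7 or 8, and ABCG26 ranked 9 in 12 of 12 libraries with 3.17% to 4.87%. Between libraries each gene's share varied by 1.27-fold (MS2) to 1.54-fold (CYP704B1), while its CPM varied by 4.79-fold or more.

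By genotype, none of the 9 genes passed the test in flowers. With edgeR's quasi-likelihood test and adjustment over all 22841 genes tested, 0 of 9 were called in urt1-1 against WT, where 0.00876% of all genes were called, 0 of 9 in heso1-4 (0.00876% of all genes) and 0 of 9 in heso1-4 urt1-1 (0.0131%), with edgeR adjusted p of 0.9998, 0.9996 and 0.9996 for every member. At an unadjusted p under 0.05, 0 of 9 passed in each, beside 2.6%, 2.73% and 2.83% of all genes. DESeq2 also called 0 of 9, with 0.0263%, 0.0351% and 0.0745% of all genes called. The median log2 fold change of the 9 was -0.61 in urt1-1, -0.22 in heso1-4 and -0.55 in heso1-4 urt1-1, beside 0.01, 0.00 and 0.00 over all genes, and the fitted value lay below 0 for 9 of 9 in each. The 3 comparisons share the WT libraries, and the values rested on single libraries. Without urt1-1 replicate 1, the urt1-1 median was -0.16. Without WT replicate 3, the medians were -0.04 in urt1-1, 0.38 in heso1-4 and 0.03 in heso1-4 urt1-1. In that fit the log2 fold changes in heso1-4 were above 0 for all 9 (0.13 for MS2 to 0.48 for TKPR2), those in heso1-4 urt1-1 were above 0 for 7 of 9, and those in urt1-1 were above 0 for CYP704B1 and TKPR2. Without any library of replicate number 1 the medians were -0.41, -0.24 and -0.46. Comparing genotypes within a number (a block per number) gave medians of -0.75, -0.17 and -0.58, again with 0 of 9 called by edgeR. At an unadjusted edgeR p under 0.05 within numbers, 2 of 9 passed in urt1-1, 0 of 9 in heso1-4 and 1 of 9 in heso1-4 urt1-1. The shares of all genes in that fit were 6.82%, 7.72% and 7.68%. A p above the threshold does not show equal levels: the 95% interval of TKPR2 in heso1-4, the value closest to 0, ran from -1.05 to 0.94.

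**Figure D2:**
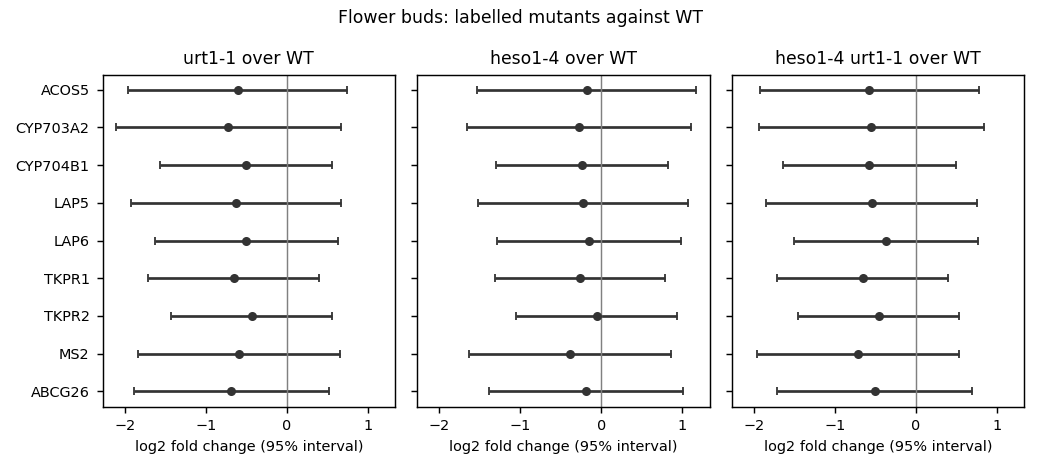
Log2 fold change against WT of the 9 genes in flowers labelled urt1-1, heso1-4 and heso1-4 urt1-1 (horizontal axis, points with 95% intervals from edgeR, 12 libraries). All 27 points lie below 0 and all 27 intervals cross 0.

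Libraries with both insertions were also set against each single insertion. Against urt1-1, the log2 fold changes of the 9 genes ran from -0.13 to 0.17 with a median of 0.03, which was -0.38 without urt1-1 replicate 1. Against heso1-4 they ran from -0.40 to -0.22 with a median of -0.34. With edgeR, 0 of 9 were called in either comparison (0.0131% of all genes in each), and 0 of 9 had an unadjusted p under 0.05 (1.39% and 2.82% of all genes). DESeq2 called 0 of 9 (0.0175% and 0.127% of all genes). On the log2 scale, the effect of both insertions differed from the sum of the single effects by 0.03 ± 0.64 (SE, TKPR2) to 0.44 ± 0.89 (CYP703A2). The edgeR adjusted p was 0.9998 for all 9. Such a sum takes heso1-4 to act alike with and without urt1-1. Mean HESO1, however, was 805 CPM in heso1-4 and 65.1 CPM in heso1-4 urt1-1.

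Levels of the 9 genes differed by replicate number in flowers. In a fit with one effect per genotype and one per replicate number, edgeR's F test of the number called 7 of 9 genes, beside 21.9% of all genes, and TKPR1 (edgeR adjusted p = 0.0528) and ABCG26 (edgeR adjusted p = 0.0708) missed the threshold. Libraries numbered 3 were called above those numbered 1 for 9 of 9 genes, beside 9.65% of all genes called higher. Those numbered 2 were called above those numbered 1 for 3 of 9 (5.98% of all genes), CYP703A2, LAP6 and MS2. The fitted log2 difference between numbers 2 and 1 was above 0 for all 9, from 0.61 to 1.23. None of the 9 was called between numbers 3 and 2 (1.16%).

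ACOS5 ran from 113 to 222 CPM in the 4 libraries numbered 3 and from 22.5 to 80.7 CPM in the 4 numbered 1, and had the largest log2 difference, 1.54 ± 0.30 (SE, edgeR adjusted p = 0.00983). CYP703A2 followed with 1.52 ± 0.32. MS2 had 1.39 ± 0.28, LAP5 1.39 ± 0.33, ABCG26 1.23 ± 0.33 and LAP6 1.20 ± 0.23. CYP704B1 had 1.17 ± 0.24, TKPR1 1.11 ± 0.27 and TKPR2 1.09 ± 0.22. LAP6 had the smallest log2 difference between numbers 3 and 2, 0.05 ± 0.23, and 1.14 ± 0.23 between numbers 2 and 1. For ACOS5, CYP703A2, LAP6 and MS2, each of the 4 libraries numbered 1 lay below each of the 8 others, as did 4.48% of all genes.

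**Figure D3:**
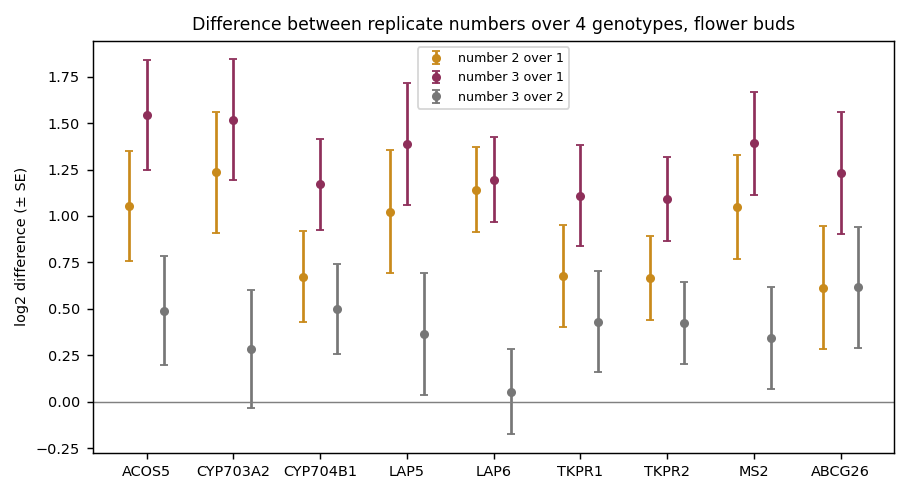
Log2 difference between flower libraries of different replicate number, over 4 genotypes, for each of the 9 genes (vertical axis, points ± SE from edgeR). Number 3 over number 1 is above 1 for all 9 genes, and number 3 over number 2 lies between 0.05 (LAP6) and 0.62 (ABCG26).

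The number of genes called by replicate number depended on which libraries were in the fit. It was 8 of 9 without WT (22.5% of all genes called in that fit), 2 of 9 without urt1-1 (7.01%), 0 of 9 without heso1-4 (9.95%) and 0 of 9 without heso1-4 urt1-1 (13.7%). It was 3 of 9 without urt1-1 replicate 1 (12.2%), 4 of 9 without WT replicate 3 (19.6%) and 0 of 9 without the libraries numbered 1 (4.04%). The share of all genes called was below the 21.9% of the full set in each of these fits but the one without WT. The median log2 difference between numbers 3 and 1 kept its direction in the fits without a genotype, from 1.09 without urt1-1 to 1.45 without heso1-4.

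Other anther genes were placed beside the 9 by the same test, number 3 against number 1. In the lists, higher and lower count the genes that edgeR called. The tapetal phenolamide genes, which make the hydroxycinnamoyl spermidines of the pollen surface, were higher for 4 of 4: SHT stood at 127 to 212 CPM in libraries numbered 3 and 30.8 to 89.9 CPM in those numbered 1 (log2 difference 1.46 ± 0.27), and CYP98A9, CYP98A8 and TSM1 had 1.52 ± 0.29, 1.60 ± 0.30 and 1.71 ± 0.36. Among 5 tapetal lipid transfer genes 3 were higher, LTP12 (1.59 ± 0.34), ATA7 (1.35 ± 0.31) and A9 (1.54 ± 0.35). Of 15 tapetum and anther regulators, 14 passed the filter (DYT1, the early tapetal bHLH factor, did not) and 7 were higher, among them MYB99 (1.21 ± 0.24), SPL (0.65 ± 0.20), bHLH010 (0.92 ± 0.18) and MS1 (1.05 ± 0.23), a regulator of late tapetal development. AMS, the bHLH factor known to bind promoters of exine genes, was also higher (0.99 ± 0.28, edgeR adjusted p = 0.0411). It had 53.1 to 99.2 CPM in number 3 and 18.8 to 59.0 CPM in number 1. Regulators not among the 7 were not called between these numbers, and EMS1 (-0.38 ± 0.13) and ROXY2 (-0.23 ± 0.42) had fitted values below 0. EMS1 was called lower in number 2 than in number 1 (-0.63 ± 0.13, edgeR adjusted p = 0.0116).

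Of 12 other exine and primexine genes, 4 were higher: QRT3 (0.88 ± 0.16), a polygalacturonase that separates tetrads, ABCG9 (0.94 ± 0.20), KNS4 (1.19 ± 0.26) and A6 (1.03 ± 0.31), a glucanase-like tapetal protein. The other 8 were not called. Of 7 pollen coat genes 3 were higher, EXL4 (1.34 ± 0.34), EXL6 (0.95 ± 0.28) and AT5G07520 (0.73 ± 0.19). Of 10 meiosis genes, ASY1 was higher (0.85 ± 0.27) and SYN1 lower (-0.69 ± 0.23), with 1.27 to 2.77 CPM in number 3 and 0.876 to 1.43 CPM in number 1 for ASY1, and the list summed to 34.0 to 43.0 CPM in number 3 and 34.1 to 35.4 CPM in number 1.

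Mature pollen genes went the other way. Of 16, 14 were lower in number 3 than in number 1, beside 12% of all genes lower, with a median log2 difference of -0.998 against 1.23 for the 9 exine genes and 0.02 over all genes. The list summed to 776 to 1017 CPM in number 3, 1344 to 1851 CPM in number 2 and 1443 to 2405 CPM in number 1, and none of its genes was at 0 in any flower library. ANX2, a receptor kinase of the pollen tube, had 8.71 to 13.1 CPM in number 3 and 26.6 to 62.1 CPM in number 1 (-1.80 ± 0.18). AGP11, an arabinogalactan protein of pollen, had -1.44 ± 0.14, and BUPS2 and BUPS1, receptor kinases that act with ANX2, had -1.45 ± 0.15 and -1.49 ± 0.15. Carpel and ovule genes moved with the number as well: 4 of 7 were lower (SHP2 -1.19 ± 0.16, STK -0.90 ± 0.18, SHP1 -0.51 ± 0.16, INO -0.49 ± 0.14) and SPT was higher (0.40 ± 0.10). Petal and stamen identity genes gave 0 of 3 called with edgeR, and of 4 green tissue genes RBCS1A was higher (0.47 ± 0.13) and LHCB2.1 lower (-1.73 ± 0.43). By sum, the phenolamide genes were at 601 to 889 CPM in number 3 and 124 to 432 CPM in number 1, the lipid transfer genes at 478 to 745 CPM in number 3 and 109.7 to 385 CPM in number 1, and the regulators at 197 to 264 CPM in number 3 and 124 to 187 CPM in number 1. The part of any of these marker genes in the difference of the 9 was not tested. No gene of any of these lists was called by genotype in flowers with edgeR or DESeq2.

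**Figure D4:**
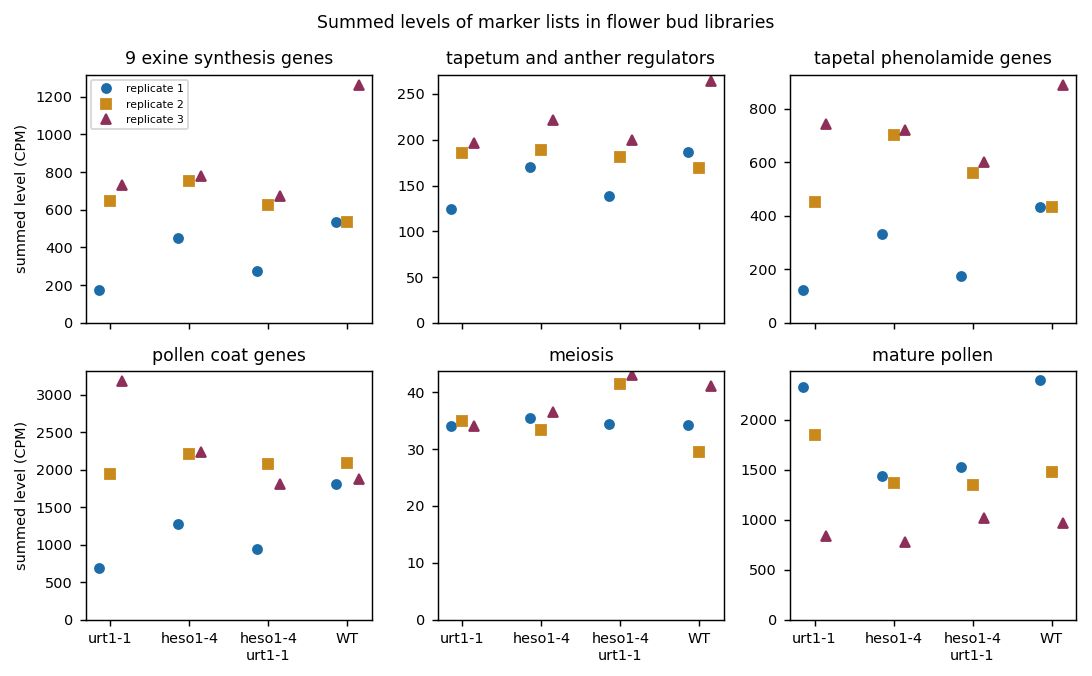
Summed level in CPM (vertical axis) of the 9 exine genes and of 5 marker lists in each flower library, by labelled genotype, with symbols for replicate numbers. Mature pollen genes are at 776 to 1017 CPM in libraries numbered 3 and 1443 to 2405 CPM in those numbered 1, while the exine genes are at 672 to 1263 CPM in number 3 and 174 to 533 CPM in number 1.

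The 9 genes followed a common profile across the 12 flower libraries. Pearson's r of log2 CPM with the mean profile of the group ran from 0.96 for LAP6 to 1.00 for LAP5. That mean includes the gene itself, which raises r, while the pairs below do not. Over the 36 pairs of genes, r ran from 0.89 (LAP6 with ABCG26) to 0.99 (ACOS5 with LAP5) with a median of 0.97, and Spearman's rho from 0.78 to 0.99. Leaving out the 2 libraries farthest from a gene's median, the lowest r of a pair was 0.68 and the median 0.93. Taken as deviations from genotype means, r ran from 0.88 to 0.99. These values describe libraries that share depth, composition and replicate number, and carry no test.

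The 10 other genes most like this profile, by Pearson's r over the 12 libraries, included named tapetal genes. AT3G57620, annotated as glyoxal oxidase-related, was closest (r = 0.99, rho = 0.98), with 6.65 to 70.8 CPM across libraries. A9 (AT5G07230), a lipid-transfer-like protein whose promoter is widely used as a tapetal driver, came next (r = 0.99, rho = 0.96). The GH3-family gene AT5G13380 (r = 0.99, rho = 0.95) and the DUF538 gene AT1G02813 (r = 0.98, rho = 0.94) followed. The regulators MYB99 (AT5G62320, r = 0.98, rho = 0.87) and AMS (AT2G16910, r = 0.97, rho = 0.91) were both among the 10. KCS7 (AT1G71160, r = 0.98, rho = 0.95) is annotated as a 3-ketoacyl-CoA synthase, AT3G59510 (r = 0.97, rho = 0.92) as a leucine-rich repeat protein, PUP6 (AT4G18190, r = 0.97, rho = 0.94) as a purine permease and AT4G19645 (r = 0.97, rho = 0.95) as a TLC-domain protein. In all, 165 of 22832 other genes (0.723%) had r of at least 0.9. By list, 4 of 4 phenolamide genes, 5 of 5 lipid transfer genes and 7 of 14 regulators reached 0.9. Among other exine and primexine genes 2 of 12 did (r from -0.64 to 0.97), and among pollen coat genes 0 of 7 (0.04 to 0.87). Of mature pollen genes 0 of 16 reached it, and their r ran from -0.78 to -0.27.

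In dry seeds, which hold no anthers, most of the 9 were at or near 0, and LAP6 was the exception. LAP6 had 7.73, 6.35 and 7.43 CPM in urt1-1, 7.85, 7.63 and 3.33 CPM in heso1-4, 7.80, 7.63 and 7.41 CPM in heso1-4 urt1-1 and 7.72, 5.49 and 6.14 CPM in WT, from 77 to 309 counts per library. Replicate 3 of heso1-4 was the low one and the other 11 lay close together. AT1G02060, the next gene upstream on the same strand, 171 bases from LAP6, had 8.18 to 14.5 CPM in the same libraries and was also lowest in heso1-4 replicate 3. Its part in the LAP6 counts was not tested. TKPR1 had 13 to 73 counts (0.64 to 2.58 CPM), ABCG26 9 to 29 and TKPR2 2 to 29. ACOS5, CYP703A2, CYP704B1, LAP5 and MS2 had 0 to 16 counts and were at 0 in 3 to 5 of 12 libraries. A count of 0 allows up to 3 counts, which is 0.0772 to 0.155 CPM at these depths, counting error only. This bound takes each count as 1 fragment, and it is too low where fragments were counted as 2.

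**Figure D5:**
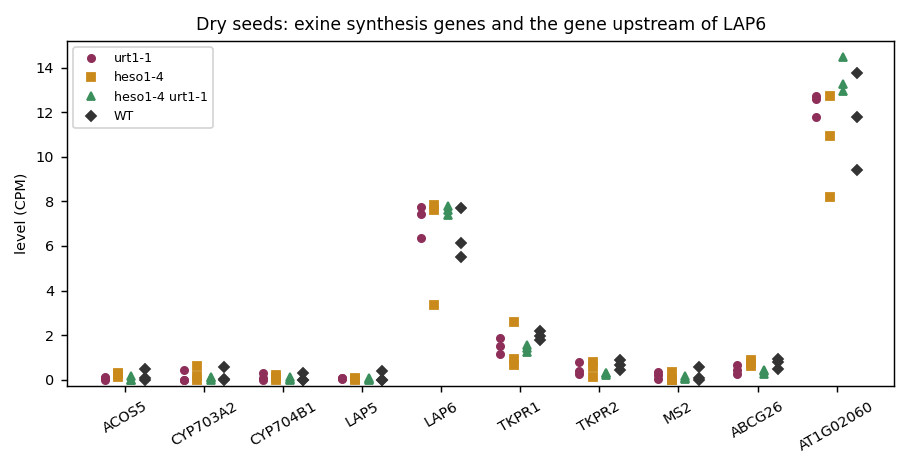
Level in CPM (vertical axis) of the 9 genes and of AT1G02060 in 12 dry seed libraries, with symbols for the labelled genotype. LAP6 lies between 3.33 and 7.85 CPM, TKPR1 between 0.64 and 2.58 CPM, and the other 7 members below 1 CPM.

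Of the 5 genes that passed the filter in seeds (CYP703A2, LAP6, TKPR1, TKPR2 and ABCG26), edgeR called 0 in urt1-1 (0.0279% of 17939 genes called), 0 in heso1-4 (0.0111%) and 0 in heso1-4 urt1-1 (0.0557%). None had an unadjusted p under 0.05 (6.9%, 3.76% and 8.62% of all genes), and DESeq2 called 0 (0.0836%, 0.0167% and 0.597%). In heso1-4 urt1-1 the 3 libraries lay below the 3 WT libraries for TKPR1, TKPR2 and ABCG26, as they did for 7.69% of all genes. TKPR2 had 0.29, 0.197 and 0.308 CPM there and 0.879, 0.649 and 0.423 CPM in WT (log2 fold change -1.28 ± 0.65, edgeR adjusted p = 0.59). ABCG26 had 0.261, 0.444 and 0.41 CPM in heso1-4 urt1-1 and 0.781, 0.942 and 0.466 CPM in WT (-0.97 ± 0.48, edgeR adjusted p = 0.589), and TKPR1 1.42, 1.26 and 1.54 CPM in heso1-4 urt1-1 and 2.1978, 1.95 and 1.78 CPM in WT (-0.49 ± 0.40, edgeR adjusted p = 0.775). In LAP6 the log2 fold changes were 0.16 ± 0.24 in urt1-1, -0.03 ± 0.25 in heso1-4 and 0.24 ± 0.24 in heso1-4 urt1-1. Whether a mutant's effect differed between flowers and seeds was tested for the 5 genes that passed the seed filter, and 0 of 5 were called with edgeR in any of the 3 mutants (lowest edgeR adjusted p = 0.93). For ACOS5, CYP704B1, LAP5 and MS2 the seed counts were too low for such a test. CYP703A2 passed the filter but had only 0 to 16 counts per seed library. The SE of its difference was 1.76 in urt1-1, 1.72 in heso1-4 and 2.19 in heso1-4 urt1-1. So few counts could not decide this question or the seed tests by genotype for CYP703A2.

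Between tissues, the 5 genes that passed the filter in both tables were all higher in WT flowers than in WT seeds by edgeR, where 47.7% of 23557 genes were higher. ACOS5, CYP704B1, LAP5 and MS2 entered this fit through their flower counts alone, which fixed their direction, and their values are a description. On the scale of the joint fit, LAP6 had 58.8, 61.8 and 116 CPM in WT flowers and 10.1, 7.28 and 8.19 CPM in WT seeds, the smallest log2 difference at 3.22 ± 0.43 (edgeR adjusted p = 2.44e-06). TKPR1 had 43.7, 35.5 and 86.1 CPM in WT flowers and 2.89, 2.59 and 2.37 CPM in WT seeds (4.40 ± 0.47), TKPR2 had 5.50 ± 0.55 and ABCG26 had 5.16 ± 0.56. For the other 5 the fitted difference was between 7.23 ± 1.28 (CYP703A2) and 8.94 ± 1.15 (MS2), but it rests on few seed counts, most of them in WT replicate 1. Without that library the median of the 9 was 10.32 in place of 7.23. Because seeds and flowers went through separate extraction protocols, an effect of extraction cannot be told apart from one of tissue.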

How the data were processed

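Per the file headers and the submitters' processing notes, the counts the authors deposited are whole-number read counts per gene and library from featureCounts (version 2.0.6, stranded, paired, whole gene spans, reads in overlapping genes counted for each) after HISAT2 (version 2.2.1) alignment to TAIR10. Flower and seed tables were tested with edgeR (version 4.0.16, R version 4.3.3): filterByExpr (minimum count 10, minimum total 15), TMM scaling, robust quasi-likelihood fits and Benjamini-Hochberg adjustment over all genes tested, called at 0.05. CPM uses TMM-scaled library sizes. Alternatives were DESeq2 (version 1.42.0), other scaling, no filter, a replicate block and leaving out libraries. The code was tested on simulated data. Descriptions used Python 3.11.15.

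The members and marker lists were chosen with earlier results of these data known, and the seed storage genes after the data were seen. Named genes were the 9 members, URT1, HESO1, the 10 genes most like the members, and up to 4 genes a list called between numbers 3 and 1. These were taken by smallest edgeR adjusted p of the F test of the replicate number, not of number 3 against 1. Others were named where 5 or fewer were counted. AT1G02060 was chosen after its values were seen.

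Same-numbered flower libraries deviated together (r above 0.1 for every number) in urt1-1 against WT (0.60, 0.13 and 0.44), heso1-4 against WT and heso1-4 urt1-1 against each single insertion, but not in heso1-4 urt1-1 against WT (0.51, 0.06 and 0.33). In seeds they did so only in urt1-1 against WT. No replicates agreed within sampling noise. Of counts between 1 and 20, 66.7% to 77.2% per library were even, so many fragments may have been counted as 2, and counts halved were an alternative. The 95% intervals come from the spread between libraries in the edgeR fits, and floors cover counting error only.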

Additional observations from a re-analysis of the deposited data

How the results depend on the processing

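Under every alternative run, 0 of the members tested were called by genotype in flowers or seeds, where at most 1.15% of all genes were called. Between WT flowers and WT seeds 9 of 9 members were called, 4 with a direction fixed by the filter, beside 63.4% to 83.5% of all genes. The signs of the fitted genotype values did depend on single libraries, among them WT replicate 3 in flowers. Leaving out 1 library in turn gave these results. In flower urt1-1 against WT, these ranges of log2 fold change crossed 0: CYP704B1 -0.84 to 0.10 and TKPR2 -0.74 to 0.11. In flower heso1-4 against WT, these ranges of log2 fold change crossed 0: ACOS5 -0.42 to 0.43, CYP703A2 -0.52 to 0.41, CYP704B1 -0.49 to 0.37, LAP5 -0.46 to 0.38, LAP6 -0.36 to 0.24, TKPR1 -0.50 to 0.22, TKPR2 -0.29 to 0.48, MS2 -0.60 to 0.13 and ABCG26 -0.47 to 0.43. In flower heso1-4 urt1-1 against WT, these ranges of log2 fold change crossed 0: ACOS5 -0.83 to 0.030, CYP703A2 -0.80 to 0.13, CYP704B1 -0.83 to 0.031, LAP5 -0.79 to 0.053, LAP6 -0.62 to 0.025, TKPR2 -0.69 to 0.078 and ABCG26 -0.79 to 0.11. In seed heso1-4 against WT, these ranges of log2 fold change crossed 0: CYP703A2 -1.24 to 3.54, LAP6 -0.23 to 0.27, ABCG26 -0.22 to 0.26 and TKPR2 -0.89 to 0.047. For CYP703A2, seed urt1-1 against WT, the range was -5.55 to 2.78. For CYP703A2, seed heso1-4 urt1-1 against WT, the range was -2.63 to 1.37. Medians over the 9 in flowers ran from -0.94 to -0.042 in urt1-1, -0.47 to 0.38 in heso1-4 and -0.79 to 0.031 in heso1-4 urt1-1. In each of these the cause was not tested.

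The count called by replicate number, 7 in the full set, was 0 without the heso1-4 libraries, 0 without those of heso1-4 urt1-1, 2 without those of urt1-1 and 0 without those of number 1, against 8 without those of WT. It was 9 with DESeq2 (27.1% of all genes called) and 5 with no filter on low counts (16.1%), beside 21.9% in the full set. It ran from 3 to 4 when urt1-1 replicate 1 or WT replicate 3 was left out. Of the 10 genes most like the profile by Pearson's r, 1 was also among the top 10 by Spearman's rho. For the replicate number, leaving out number 1, urt1-1 replicate 1 or WT replicate 3 and halving the counts were chosen after seeing the data, as was leaving out number 1 for the genotypes. Among values of single genes and medians, 34 changed sign, 28 moved past the threshold to no call, 4 gained a call, 2 moved by more than the spread and 738 kept their side of the threshold or moved by less than the spread.

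The replicate block changed no call by genotype. It turned the sign of CYP703A2 in seeds of heso1-4 against WT to -0.21, a gene with 0 to 16 counts per seed library, too few to give a direction. In comparisons where the numbers do not pair the samples, the samples share only a number.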
